A study of Homo sapiens with 2 samples.

Results

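The genes described here are 10 components of the B cell antigen receptor and regulators of B lineage identity: IGHM, CD79A, CD79B, BLK, SYK, PAX5, TCF3, IKZF1, POU2F2 and POU2AF1. They were taken as every probe set on the array whose annotated gene symbol is 1 of these 10, which gave 33 probe sets out of 22283. The 10 genes are among 11963 genes named by a probe set with a single symbol. The group was chosen by the untreated and vorinostat signals of these same arrays, so the values below are a description.

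Gene expression was compared between an untreated culture of L-540, an established Hodgkin lymphoma cell line usually described as of T cell origin, and a culture of the same line given vorinostat, a hydroxamate inhibitor of histone deacetylases. The labels named neither a dose nor a duration. Each group held 1 Affymetrix HG_U133A array, so none of the differences below has a replicate check and no test was run. The comparison addressed how vorinostat alters the expression profile of these lymphoma cells.

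The B cell receptor is a membrane immunoglobulin, whose heavy chain in naive cells is the mu chain, joined to a signalling pair of CD79A and CD79B. Antigen binding lets Src family kinases such as BLK and LYN phosphorylate the tails of that pair, which then recruit the kinase SYK. The genes for these parts are regulated in B cells by transcription factors that include TCF3 (E2A), PAX5 and IKZF1 (Ikaros). The octamer-binding protein POU2F2 (OCT2) and its coactivator POU2AF1 (OBF1) also act in B cells. Classical Hodgkin cells mostly derive from B cells and are known for having lost much of this programme.

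Signals are MAS5 intensities on a linear scale, and signals below a floor of 68.9 units were treated as too low to be read as differences. A probe set below it in both cultures counts as not measured. Where it was below in 1 culture, the fold is a lower bound ("at least"). Of the 33 probe sets 21 were measured and 17 of these were above the floor on both arrays. Each of these 17 was lower in the vorinostat array, and 16 of them were at least 2-fold lower. TCF3 alone gave 9 of the 17, and probe sets of 1 gene are not replicates. With those at the floor on 1 array included, 17 of the 21 measured were at least 2-fold lower. On that same basis 5.66% of all 12445 measured single-symbol probe sets were at least 2-fold lower. Of all measured genes, bounds included, 53.0% had a ratio below 0. For 6 of the 10 genes at least 1 probe set was measured, and on their brightest probe sets IGHM, BLK, IKZF1, PAX5 and TCF3 were at least 2-fold lower in the vorinostat array. The sixth, POU2F2, passed the floor in the untreated array only, so its direction was set by that filter. Across all 8277 measured genes 5.12% were at least 2-fold lower and 3.77% at least 2-fold higher. CD79A, CD79B, SYK and POU2AF1 were under the floor on both arrays. In RNA from a whole culture, fewer cells that express a gene and less of its RNA in each cell cannot be told apart.

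**Figure D1:**
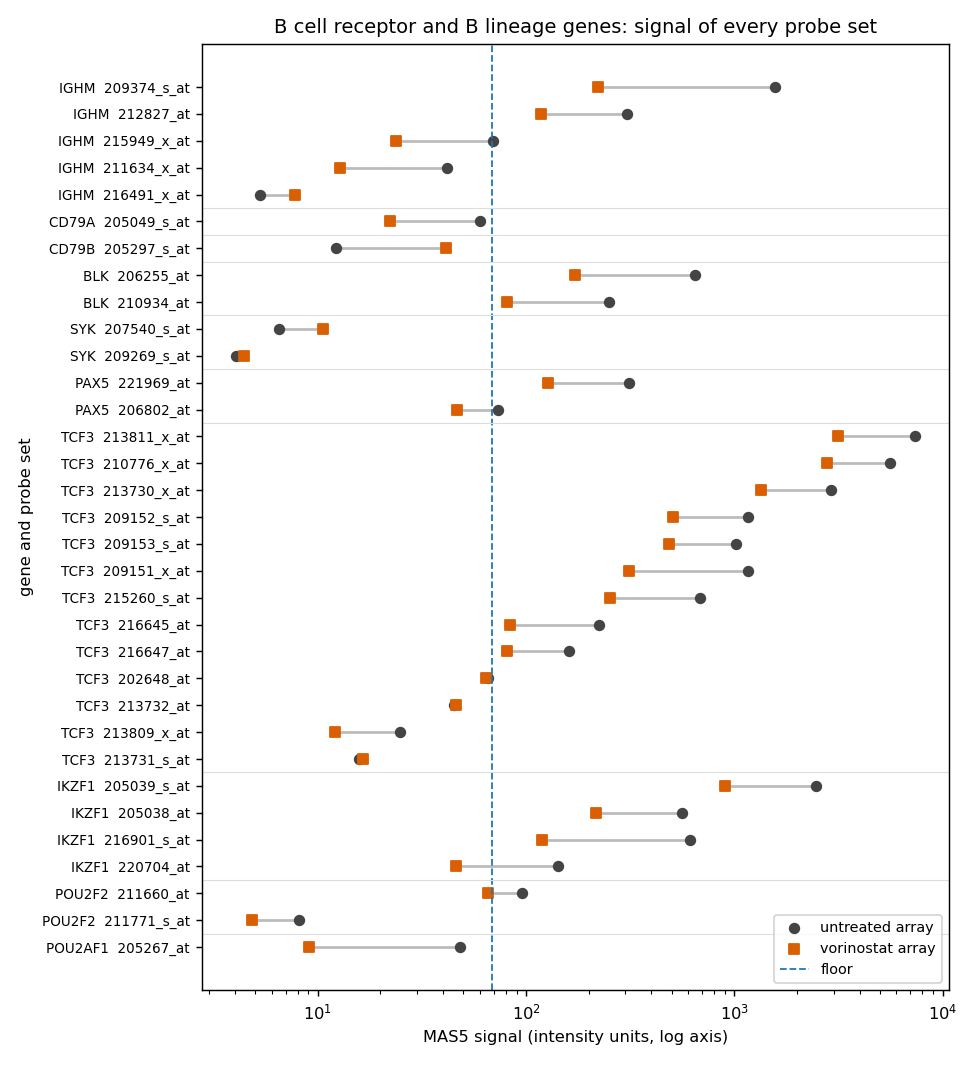
Signal of each of the 33 probe sets of the 10 genes on the untreated array (circles) and the vorinostat array (squares), in MAS5 intensity units on a log axis, with the floor of 68.9 as a dashed line and 1 array per group. All 17 probe sets right of the floor on both arrays have the square left of the circle, and the probe sets of CD79A, CD79B, SYK and POU2AF1 lie left of the floor.

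Among the receptor chains, IGHM, which encodes the immunoglobulin mu heavy chain, had the largest ratio of the members on its brightest probe set. When probe sets with a shared-sequence suffix were left out its log2 ratio was -1.38, behind BLK (-1.91) and TCF3 (-1.43). With the median over probe sets it was also -1.38, behind BLK (-1.77) and IKZF1 (-1.41). That brightest probe set had a signal of 1576 in the untreated array and 222 in the vorinostat array, 7.11-fold lower. Its suffix marks probes that can match related transcripts. The IGHM probe set without such a suffix went from 306 to 118, 2.60-fold lower. Both were still above the floor in the vorinostat array. The third measured probe set read 69.6 untreated, just above the floor, and 23.7 treated, which gives a bound of only 1.01-fold. The remaining 2 IGHM probe sets lay between 5.29 and 41.8 on both arrays.

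A further 27 probe sets name IGHM together with other immunoglobulin heavy chain genes and were kept out of the gene's own values. Of these 7 were measured, 6 of them lower and 1 higher in the vorinostat array. However, 4 of the 7, the 1 higher among them, passed the floor on a single array, which set their direction. Over all measured genes 53.0% had a ratio below 0. The most changed of the 7 had signals of 276 and 70.6 (3.92-fold lower), the treated signal just above the floor. The next had 192 and 92.0 (2.09-fold lower). The other 5 were short of 2-fold, 4 of them as bounds. Heavy chain probe sets of this kind cannot assign a signal to a single constant region.

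The signalling pair of the receptor lay too low for a ratio. CD79A, with 1 probe set, had signals of 60.2 in the untreated and 22.3 in the vorinostat array. CD79B, also with 1 probe set, had 12.3 and 41.1. The pair thus showed unlike raw signals, both in the range where no ratio was formed. When 16 signal units were added to every signal and no floor was used, the log2 ratio was -0.99 for CD79A and 1.02 for CD79B.

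The kinases of the receptor differed in whether they were detected. BLK, a Src family kinase that is largely limited to B cells, had signals of 646 untreated and 171 treated on its brighter probe set, 3.77-fold lower. Its other probe set went from 250.4 to 81.4, 3.07-fold lower. Neither BLK probe set has a shared-sequence suffix, and the 2 ratios lay close together. SYK, the kinase that docks on the phosphorylated CD79 pair, had signals between 4.06 and 10.6 over its 2 probe sets and both arrays, under the floor throughout. LYN, another Src family kinase of the receptor, which was named after its values were seen, had signals of 1381 and 1431 on its brightest probe set. Its log2 ratios were 0.05, 0.09 and 0.11 on 3 probe sets, within 2-fold.

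Of the lineage factors, IKZF1, a zinc finger protein required for lymphocyte development, was measured on all 4 of its probe sets. The brightest went from 2455 to 906, 2.71-fold lower, and a probe set without a shared-sequence suffix from 561 to 216, 2.60-fold lower. Another went from 610 to 120, which at 5.10-fold was the largest ratio among them. The dimmest had a signal of 143 untreated and 46.0 treated, under the floor, and was at least 2.08-fold lower. All 4 thus lay past 2-fold, with ratios that differed among themselves by more than those of BLK. Of the 304 genes with at least 4 measured probe sets, 7 (2.3%) had every probe set at least 2-fold lower, and IKZF1 was 1 of these 7. Its dimmest probe set passed the floor in the untreated array only, so its direction was set by that filter. On probe sets above the floor on both arrays IKZF1 had 3, fewer than the 4 asked for. The count is a description, since the group was chosen by these signals.

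TCF3, which encodes the E2A basic helix-loop-helix proteins that start B cell development, had 13 probe sets, of which 9 were above the floor on both arrays. Its brightest went from 7373 to 3145, 2.34-fold lower. The next in brightness went from 5562 to 2771, 2.01-fold lower. The largest ratio came from a probe set with 1161 and 312, 3.72-fold lower. The 2 measured TCF3 probe sets without a shared-sequence suffix had 225 and 83.8 (2.69-fold lower) and 161 and 81.3 (1.98-fold lower). Of the 9 probe sets 8 were at least 2-fold lower, against 5.66% of all 12445 measured probe sets with a single symbol. Probe sets of a gene read the same RNA samples and are not replicates of the treatment. The other 4 TCF3 probe sets stayed under the floor, the highest of them at 65.7 and 64.3.

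PAX5, the factor that commits cells to the B lineage and holds them there, was near the limit of what the arrays measured. Its brighter probe set went from 313 to 127, 2.46-fold lower. Its other probe set had 73.5 and 46.6, a fall to under the floor that gives a bound of 1.07-fold. The median log2 ratio over both, with that bound, was -0.70, which is short of 2-fold.

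**Figure D2:**
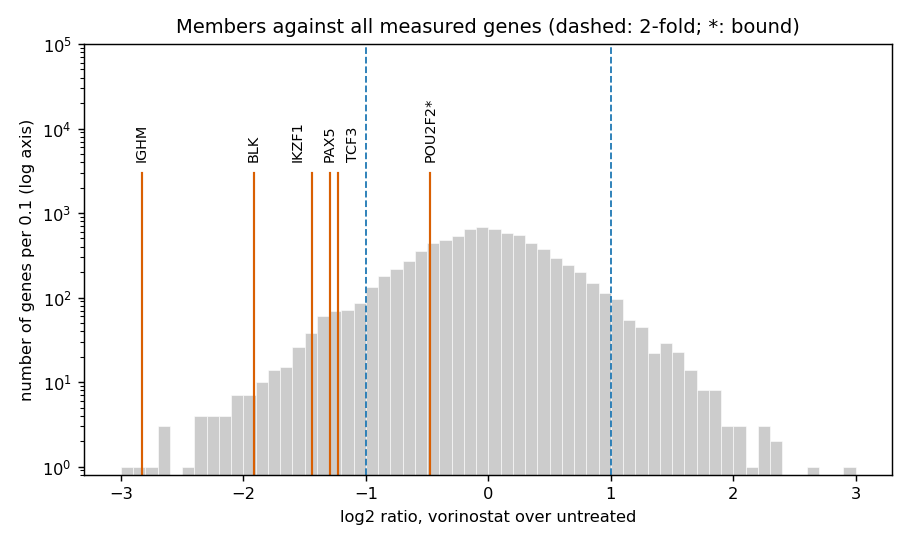
Number of measured genes (log axis) by log2 ratio of vorinostat over untreated signal, in steps of 0.1, for all 8277 measured genes (grey), with the 6 measured members as orange lines and 2-fold as dashed lines. IGHM, BLK, IKZF1, PAX5 and TCF3 lie left of the lower dashed line at -2.83, -1.91, -1.44, -1.30 and -1.23, and POU2F2, a bound, at -0.47.

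The octamer system was barely detected. POU2F2, which binds the octamer element of immunoglobulin promoters, had a signal of 95.6 in the untreated array and 65.9 in the vorinostat array on 1 probe set, a bound of 1.39-fold. Its other probe set read 8.14 and 4.83. POU2AF1, the coactivator that octamer-binding proteins recruit at those promoters, had 48.3 and 9.09, both under the floor. With 16 units added and no floor its log2 ratio was -1.36, and with the floor at the highest poly-A control signal, 43.1, the bound was -0.16.

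The promoters of IKZF1, PAX5 and TCF3 are printed because these are the 3 lineage factors measured above the floor on both arrays and all lower in the vorinostat array. Each is the 250 bases before the annotated start, 5′ to 3′ on the gene's strand, from RefSeq on GRCh38.p14. The window of IKZF1, the most upstream of 3 annotated starts, is chr7:50304466-50304715 on the plus strand. That of PAX5 is chr9:37034269-37034518 and that of TCF3 chr19:1652616-1652865, both on the minus strand. Capitals mark matches, on either strand and with overlaps counted, to the octamer ATTTGCAT, the E2A-type E-box CAGGTG, the Ikaros core TGGGAA and the GC box GGGCGG.
IKZF1: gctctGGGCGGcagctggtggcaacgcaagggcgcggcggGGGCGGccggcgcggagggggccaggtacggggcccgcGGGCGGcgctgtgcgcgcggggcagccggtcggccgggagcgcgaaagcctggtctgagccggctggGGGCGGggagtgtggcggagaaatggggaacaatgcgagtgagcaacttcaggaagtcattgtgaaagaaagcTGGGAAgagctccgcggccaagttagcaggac
PAX5: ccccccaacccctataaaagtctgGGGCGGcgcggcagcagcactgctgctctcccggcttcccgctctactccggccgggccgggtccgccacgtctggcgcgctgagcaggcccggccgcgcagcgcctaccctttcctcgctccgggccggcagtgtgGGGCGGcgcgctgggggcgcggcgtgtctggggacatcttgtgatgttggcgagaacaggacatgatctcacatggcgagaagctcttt
TCF3: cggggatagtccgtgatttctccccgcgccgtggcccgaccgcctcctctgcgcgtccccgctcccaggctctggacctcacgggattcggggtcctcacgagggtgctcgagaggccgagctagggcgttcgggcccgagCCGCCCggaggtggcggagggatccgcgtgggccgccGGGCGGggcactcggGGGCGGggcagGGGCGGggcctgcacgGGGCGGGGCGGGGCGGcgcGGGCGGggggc

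The 3 printed windows are rich in G and C, at 71.2% for IKZF1, 69.6% for PAX5 and 79.6% for TCF3, against a median of 58% over 35116 RefSeq promoter windows of the same length. The other 2 windows of IKZF1 have 45.2% and 32.8% and hold 0 matches to any of the 4 motifs. The GC box, the element bound by SP1, matched 4 times in the printed IKZF1 window, 2 times in that of PAX5 and 8 times in that of TCF3, and 42.6% of all windows hold it. The Ikaros core matched once in the printed IKZF1 window, 32 to 27 bases before the start, and 20.8% of all windows hold it. Windows of the members on chromosome 8 were left out before counting, so the absence of a gene on that chromosome is not a finding. Those kept covered 6 of the 10 genes, 10 windows in all (IGHM, CD79B, BLK and POU2AF1 had none among them). None of the 10 held the octamer, which 1.63% of all windows hold, and the E-box was in those of CD79A and SYK, 1 window each, against 17.5% of all windows. A match shows only that the letters are present in the window.

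Other genes of the same pathways, in 6 lists drawn up with earlier results of these arrays known, were described by counts of genes at least 2-fold apart, where 5.12% of all measured genes were lower and 3.77% higher. A bound short of 2-fold was counted as within 2-fold, although the difference itself may be larger. The median log2 ratio over all measured genes was -0.04. Scaling the arrays to equal medians moved it by 0.12 to 0.08, and then 58.8% of the genes at least 2-fold apart were higher, against 42.4% as deposited.

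Of 22 genes that carry the signal of the receptor inward, 14 were measured, with 0 at least 2-fold lower, 1 higher and 13 within 2-fold. Their median log2 ratio was -0.07, and 0.06 with equal medians. FYN, a Src family kinase, had signals of 114 and 338 on its brightest probe set, 2.96-fold higher. Its second measured probe set had 65.5 untreated, under the floor, and 179 treated, at least 2.60-fold higher. The Src family members of the receptor pathway thus had ratios in different directions, lower for BLK and higher for FYN. The adaptor gene SHC1 went from 1263 to 664 (1.90-fold lower), and MALT1, a protease that relays the signal to NF-kB, from 371 to 642 (1.73-fold higher). PRKCB, which encodes the protein kinase C of that relay, had 107 and 27.6, at least 1.55-fold lower. With the floor at the 25th percentile or the highest poly-A signal, or with the offset, 1 signalling gene was at least 2-fold lower.

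Of 13 genes whose products restrain the receptor, 9 were measured, with 1 lower, 0 higher and 8 within 2-fold, and a median of -0.37. INPP5D, which encodes the lipid phosphatase SHIP1, was the lower one, with 604 and 251 on its brighter probe set (2.40-fold) and a bound of 2.25-fold on the other. The ubiquitin ligase gene CBLB had 625 and 992 (1.59-fold higher), the adaptor gene DOK1 747 and 480.1 (1.56-fold lower) and the inhibitory coreceptor gene CD22 186 and 128 (1.45-fold lower).

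Of 23 further lineage factors 15 were measured, with 2 lower, 0 higher and 13 within 2-fold, and a median of -0.45. With the floor at the 25th percentile or the highest poly-A signal, 3 were at least 2-fold lower. PRDM1, the repressor that drives plasma cell differentiation, had signals of 2712 and 801, 3.39-fold lower on its only probe set, which has a shared-sequence suffix. RFX5, a factor for MHC class II genes, was 2.02-fold lower (2075 and 1029) on its brighter and 1.56-fold lower on its other probe set, and lay within 2-fold with equal medians. IRF8 had 223 and 393 (1.76-fold higher), and MYB had 1650.5 and 938 (1.76-fold lower).

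The list of genes that oppose the B cell programme had 8 of 10 measured, with 2 lower, 0 higher and 6 within 2-fold, and a median of -0.18. A floor at the 60th percentile turned that median to 0.06, and it was -1.12 on the 3 genes measured without shared-sequence probe sets. CEBPB, a myeloid factor, had 3297 and 1082 (3.05-fold lower), and the receptor gene NOTCH1 had 244 and 112.0 (2.18-fold lower, but within 2-fold with equal medians). MSC, which encodes an inhibitor of E2A called ABF1, had 868 and 613 (1.42-fold lower), and GATA3, a T cell factor, had 1174 and 1565 (1.33-fold higher). ID2 of the same list, named after its values were seen, was higher on both its probe sets. The brighter had 8759 and 10139 (1.16-fold), and the other 1631 and 3305 (2.03-fold), which the count of 0 higher leaves out.

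Surface molecules of B cells had 10 of 19 measured, all 10 counted as within 2-fold, with a median of 0.13. With the floor at the 25th percentile or with the offset, 1 was at least 2-fold lower. CD53 had 3803 and 2335 (1.63-fold lower), CD40 had 262 and 423 (1.61-fold higher), SLAMF1 194 and 122 (1.59-fold lower) and CD37 421 and 269 (1.56-fold lower). Of 18 genes for other immunoglobulin chains and related proteins, 4 were measured and counted as within 2-fold. Only IGKC among them was above the floor on both arrays. The median of these 4 was -0.05, but 0.05 with equal medians, 0.09 after quantile normalization and 0.07 after loess. IGKC, the kappa light chain gene, had 199 and 157 (1.27-fold lower). The lambda segment gene IGLJ3 had 86.3 and 68.7, a bound of 1.25-fold, the delta chain gene IGHD 64.0 and 82.1, a bound of 1.19-fold higher, and the IgM receptor gene FCMR 61.7 and 80.8, a bound of 1.17-fold higher. Only the brightest IGKC probe set, which has a shared-sequence suffix, could thus be set beside the mu chain, and it lay within 2-fold. The mu chain was 7.11-fold lower on a probe set with such a suffix and 2.60-fold lower without. The measured IGKC probe set without such a suffix gave only a bound of 1.33-fold lower. The bounds of IGLJ3, IGHD and FCMR lay too close to the floor to show differences as large as those of the mu chain.

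**Figure D3:**
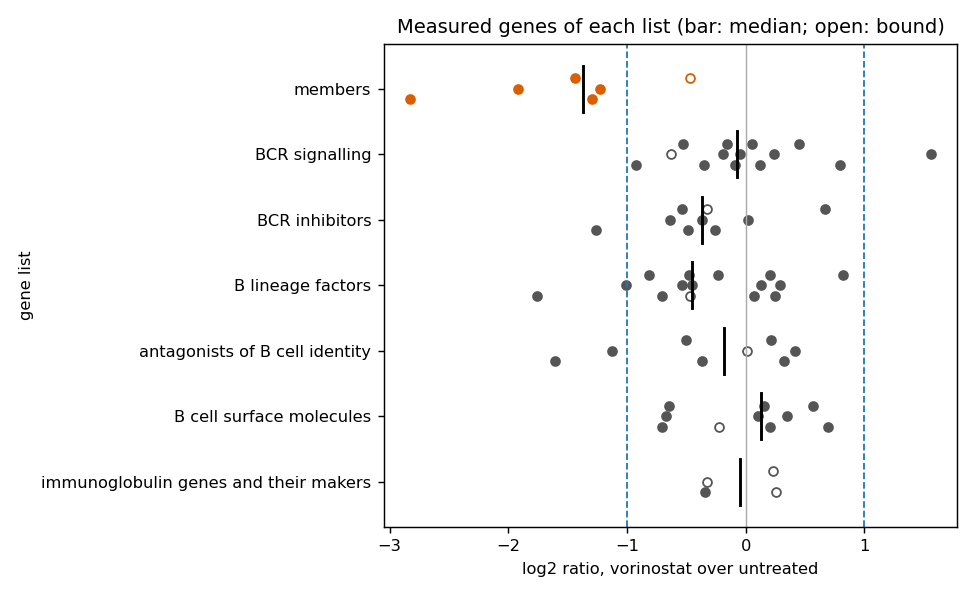
Log2 ratio of vorinostat over untreated signal for each measured gene (points; open where it is a bound) of the 10 members and of the 6 related lists, with the list's median as a bar and 2-fold as dashed lines, 1 array per group. Of the 6 measured members, which were chosen by these signals, 5 lie left of the lower dashed line. In the lists 0 of 14 signalling genes, 1 of 9 inhibitors, 2 of 15 lineage factors and 2 of 8 opposing genes lie there. Of surface molecules 0 of 10 and of immunoglobulin genes 0 of 4 lie there, where 5.12% of all measured genes do. The medians of the signalling and the immunoglobulin list turn above 0 with equal medians.

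The identity of the cells was read from markers. Of 6 B cell markers with a probe set, 2 were above the floor on both arrays, PAX5 and CD22, and their summed signal was 499 untreated and 255 treated. PAX5, CD79A and CD79B are also members, so these markers partly repeat the values above. CD22 was measured on 1 of its 4 probe sets. MS4A1 (CD20) and CR2 (CD21), named after their values were seen, were under the floor on both arrays beside CD79A and CD79B. Of 14 T cell markers, 7 passed the floor untreated and 5 treated, with a summed signal of 6581 and 2375. The largest part of either sum was CD247, the zeta chain of the T cell receptor, at 4463 and 942 (4.74-fold lower). The 5 above the floor on both arrays were all lower, where 53.0% of all measured genes, bounds included, had a ratio below 0. Of the 7 measured T cell markers 3 were at least 2-fold lower, where 5.12% of all measured genes were. CD3E, at least 2.01-fold lower, passed the floor in the untreated array only, which fixed its direction. Of 8 Hodgkin cell markers 7 were above the floor on each array, with a summed signal of 38848 and 25856. Of these 7, 5 were lower, 3 of them at least 2-fold. TNFRSF8 (CD30) and BATF3 were 3.34-fold and 3.40-fold lower, whereas IRF4, named after its values were seen, had 12032 and 14699 (1.22-fold higher) and GATA3 was 1.33-fold higher. Of 5 monocyte markers ITGAM and CSF1R were above the floor, at 1.69-fold and 1.39-fold lower on their brightest probe sets, with a summed signal of 337 and 226. A second ITGAM probe set, under the floor in the untreated array, gave a bound of 0.04 in log2 ratio, in the other direction. The part of these markers' differences in those of the B cell genes was not tested.

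The ratios of the members were recomputed under 9 other ways of scaling the arrays, setting the floor and choosing the probe set. BLK, TCF3 and IKZF1 stayed at least 2-fold lower in each of the 9, with log2 ratios between -1.91 and -1.50, between -1.43 and -1.10 and between -1.47 and -1.31. IGHM also stayed past 2-fold, between -2.83 and -1.38, the latter on its probe set without a shared-sequence suffix and for the median over its probe sets. PAX5 stayed past 2-fold in 7 of 9, the exceptions being the floor at the 60th percentile, with a bound of -0.45, and the median over its probe sets.

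**Figure D4:**
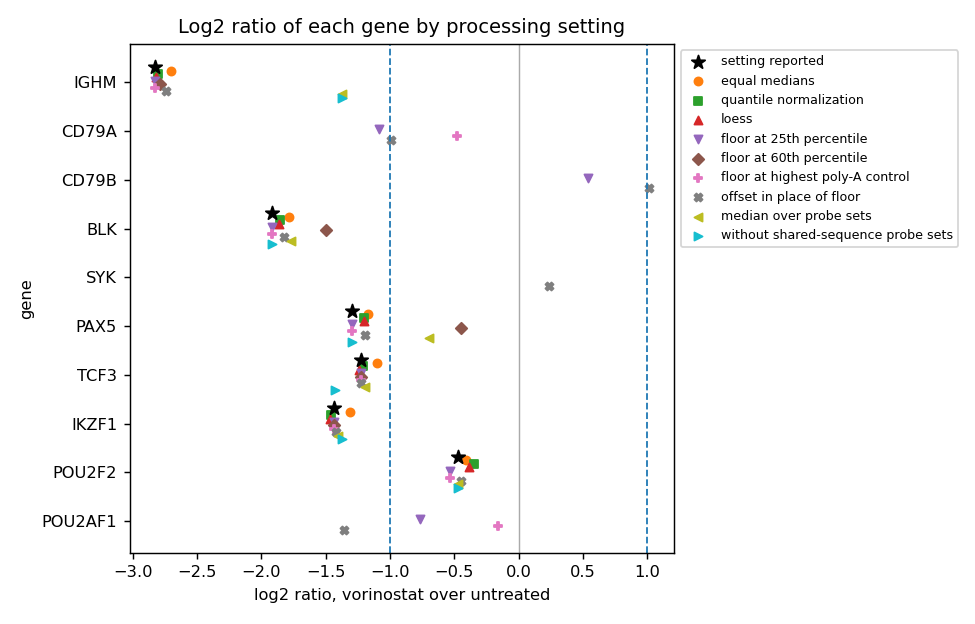
Log2 ratio of vorinostat over untreated signal for each gene (rows) under the reported setting (star) and 9 alternatives (other symbols), with 2-fold as dashed lines; a gene has no symbol where a setting leaves it unmeasured. BLK, TCF3, IKZF1 and IGHM stay left of the lower dashed line throughout, PAX5 crosses it in 2 settings, and CD79A, CD79B, SYK and POU2AF1 appear only where the floor is lower or replaced by an offset.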

How the data were processed

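Total RNA from 1 untreated and 1 vorinostat-treated culture of L-540 was hybridised to 1 array each, per the labels' protocols. The deposited values are intensity values per probe set from MAS5, as the submitters' processing notes name it. Its version and scaling target are not given in the sources used here, nor are detection calls. Both arrays had a 2% trimmed mean of 500.2, and their scaling was left as it was. The median signal was 126 untreated and 115 treated, and 61.2% and 58.8% of non-control probe sets were above the floor.

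Symbols came from the platform's annotation table: 19065 of 22215 non-control probe sets had 1 symbol, 1043 had several and 2107 were not in the table. Entrez identifiers of 19053 were found in RefSeq (GRCh38.p14), and 0 symbols changed. The floor was the 40th percentile of non-control signals over both arrays, above the highest of 27 poly-A control probe sets (43.1). Signals under it were set to it before log2, and the brightest probe set on the log2 scale stood for a gene. Members, lists and thresholds were chosen with earlier results of these data known. Named were all 10 members, in each list up to 4 genes with the largest absolute ratio and any past 2-fold, and at most 2 genes per marker list; exceptions are marked. The alternatives were 3 scalings, 3 floors, an offset of 16 in place of a floor, 2 rules for the probe set, and thresholds of 1.5-fold and 3-fold. Loess used a span of 0.4 (statsmodels 0.14.6, Python 3.11.15). The steps were tested on simulated data. With 1 array per group, the number of arrays limits the precision, and no p-value or interval is given.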

Additional observations from a re-analysis of the deposited data

How the results depend on the processing

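Of the 6 measured members 5 were at least 2-fold lower and 0 higher. At the 2-fold threshold the number lower lay between 4 and 6 over 9 alternatives, at 4 with the floor at the 60th percentile or with the median over probe sets, and at 6 with the floor at the 25th percentile or with the offset. Those counts of 4 were out of 5 and 6 measured members, in that order, and those of 6 out of 9 and 10. The share of measured members that were lower thus changed with the setting. At the 3-fold threshold 2 members, IGHM and BLK, were lower. With the offset 1 member, CD79B, was higher, from signals that were under the floor on both arrays. Their median log2 ratio lay between -1.44 and -1.21. Counts over all genes also moved, as did the number of genes measured. At 2-fold 250 to 707 were lower and 217 to 471 higher over the 9 alternatives. Of the 8277 genes of the reported setting, 1283 were lower and 1051 higher at 1.5-fold, and 77 and 45 at 3-fold. The lowest count of lower genes, 250, came without probe sets whose suffix marks shared sequence, which left 5172 measured genes, and the highest, 707, with the offset, which measured 11963. The count of lower lineage factors was 1 with equal medians or the median over probe sets, 0 on probe sets free of a shared-sequence suffix, and 4 with the offset. On those same probe sets 0 of the measured receptor signalling genes were higher and 0 of the inhibitors lower, since every measured probe set of FYN and INPP5D carries such a suffix. No paired analysis was possible because each group holds 1 array. CD79A, CD79B, SYK and POU2AF1 rest on signals near or under the poly-A controls or the floor, and no direction is read for them.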
